A study of Mus musculus with 47 samples.

Results

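The principal cell is the cell type of the kidney's connecting tubule and collecting duct that reclaims water and sodium under hormonal control, and 10 of its genes were described in the kidneys of 3 mouse strains. They were picked by gene symbol for their roles in this cell, with earlier results of these data known: the water channel genes Aqp2, Aqp3 and Aqp4, the vasopressin receptor gene Avpr2, the sodium channel subunit genes Scnn1a, Scnn1b and Scnn1g, and the steroid pathway genes Hsd11b2, Nr3c2 and Sgk1. They are 10 of the 22474 genes in the deposited count table, and all 10 were among the 18786 genes kept by a filter on low counts. Polyadenylated RNA of whole kidney, a tissue the labels call metanephros, was sequenced in 47 libraries, 24 from females and 23 from males. The strains were NZO/HlLtJ (an obese, diabetes-prone strain), CAST/EiJ (a wild-derived strain) and C57BL/6J (the commonest laboratory strain), all of genotype WT. Each strain and sex received either a diet labelled 44% fat + fiber, which the series describes as high in fat and sugar, or a control diet labelled 10% fat + fiber, from 6 weeks of age until collection at 15 weeks. This made 12 groups of 4 libraries, with 3 in the group of CAST/EiJ males on 10% fat. Nothing in the labels says whether the libraries of a group come from separate animals, so p-values measure the spread between these libraries. In bulk RNA, fewer principal cells and less RNA per principal cell cannot be told apart. RNA of these genes from other kidney cell types, where present, is counted with that of the principal cell.

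Vasopressin from the pituitary binds the receptor Avpr2 on the basal side of the principal cell, which raises cAMP and sends the water channel Aqp2 to the luminal membrane. Water leaves the cell again through Aqp3 and Aqp4 on the other side. Aldosterone acts through the mineralocorticoid receptor, encoded by Nr3c2, while the enzyme Hsd11b2 inactivates glucocorticoids (cortisol in humans, corticosterone in mice) that would otherwise occupy this receptor. One of the receptor's early targets is the kinase Sgk1, which keeps the epithelial sodium channel, built of the subunits Scnn1a, Scnn1b and Scnn1g, at the membrane.

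Library totals ran from 34394546 to 58433712 estimated counts, with a median of 44759432, and the 10 genes took 0.043% to 0.104% of them. Xist, the X-inactivation transcript, was at 863 CPM (counts per 1000000 counts) or more in every library labelled female and at 2.43 CPM or less in every library labelled male. The 12 principal cell markers outside the 10 genes were all above 0 in every library and summed to between 692.8 and 1435.9 CPM. The 7 proximal tubule markers summed to between 10194.9 and 16587.5 CPM, and the 6 urothelium markers to between 5.34 and 55.9 CPM. The numbers in the sample titles fall into 3 runs beginning with 77, 81 and 89, whose meaning the labels do not give. A term for these runs entered every fit and was past an adjusted p of 0.05 for 0 genes, with 1258 at an unadjusted p under 0.05.

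Scaled by transcript length, the order of the genes' median levels was Aqp4 at 75.1 CPM per kb, Aqp2 at 62.7, Hsd11b2 at 46.5, Sgk1 at 35.9, Scnn1a at 30.7, Aqp3 at 30.4, Scnn1g at 12.3, Scnn1b at 10.9, Avpr2 at 6.2 and Nr3c2 at 4.5 CPM per kb. The genes for both steroid-binding steps thus sat far apart in level, with the enzyme Hsd11b2 near the top and the receptor Nr3c2 last. The length used was the median of a gene's annotated coding transcripts, 8 of them for Aqp4. Unscaled, the highest median was 105 CPM for Scnn1a, above 96.3 CPM for Aqp4, so the order rests on the lengths used. All later levels are CPM, which are compared only within a gene. Sgk1 and Aqp2 had the largest spread between libraries of a group, with residual SDs of 0.61 and 0.31 on the log2 scale. Their promoters are shown because these 2 genes vary most, and because their regulation by steroid and by cAMP is textbook knowledge. RefSeq promoter windows on GRCm38.p6 (250 bases before to 50 after a start) were used for 7 of the 10 genes. The first sequence lies before 1 of the 6 Sgk1 starts listed, at chr10:21993640-21993889 on the plus strand, and its capitals mark a palindromic match to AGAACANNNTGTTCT, the pattern of a corticosteroid receptor element. The second lies before the start of Aqp2 at chr15:99578806-99579055 on the plus strand, and its capitals mark CGTCA, the core of a cAMP response element.
Sgk1: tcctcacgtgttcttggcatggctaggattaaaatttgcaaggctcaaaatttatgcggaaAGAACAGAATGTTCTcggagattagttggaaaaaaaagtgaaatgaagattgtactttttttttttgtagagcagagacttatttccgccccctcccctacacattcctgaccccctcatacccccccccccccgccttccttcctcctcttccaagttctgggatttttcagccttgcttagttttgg
Aqp2: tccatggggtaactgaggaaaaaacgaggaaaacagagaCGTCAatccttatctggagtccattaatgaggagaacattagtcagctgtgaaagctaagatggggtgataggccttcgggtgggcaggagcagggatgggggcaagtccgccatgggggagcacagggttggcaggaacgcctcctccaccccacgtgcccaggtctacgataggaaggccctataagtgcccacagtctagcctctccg
The motifs were chosen after expression values had been seen, and a match is a match of letters only. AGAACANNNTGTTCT, searched on both strands, starts 189 bases before this Sgk1 start and was found in 3 of 32851 mouse promoter windows (0.00913%). It contains AGAACA on each strand, which by itself was found in 19% of windows. CGTCA, 211 bases before the Aqp2 start, was found in 20.8% of windows, and the full palindrome TGACGTCA was found in 1.79% of windows and in none of those of these 7 genes.

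**Figure D1:**
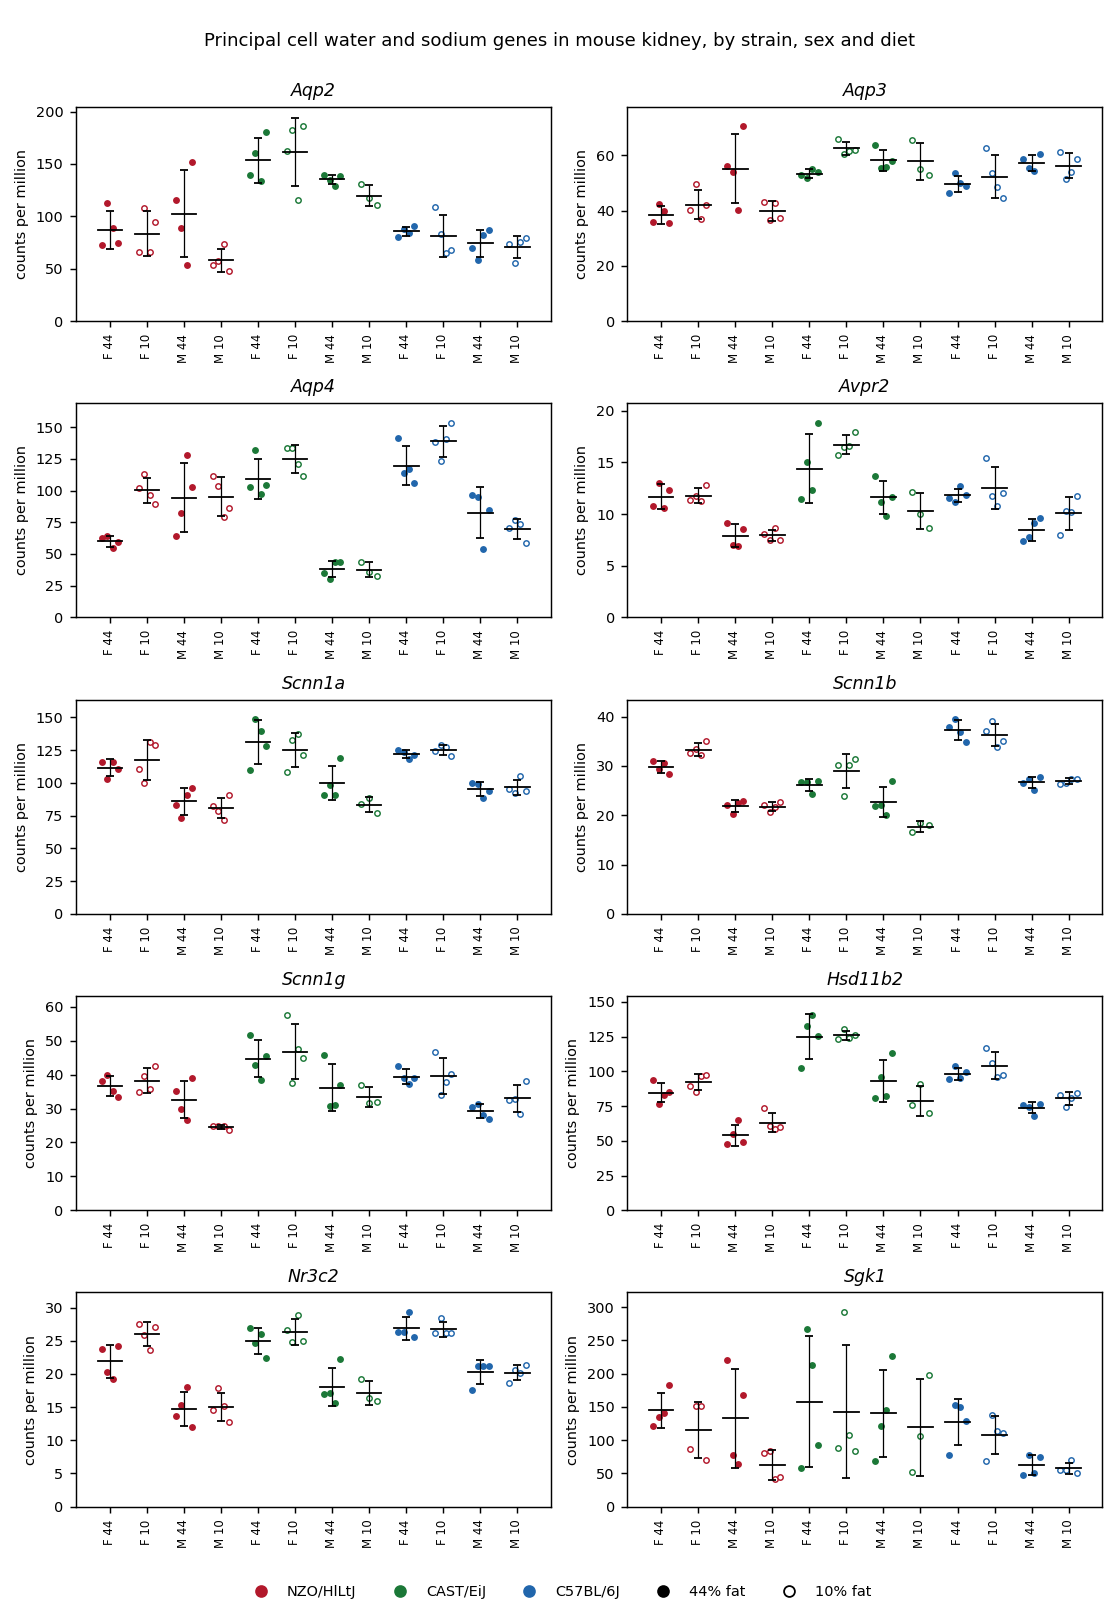
Level of each of the 10 genes (CPM, linear axes that differ between panels) in every library of the 12 groups, with NZO/HlLtJ, CAST/EiJ and C57BL/6J from left to right, females before males and 44% fat (filled) before 10% fat (open). Lines are group means and bars are SD. Aqp4 separates the sexes most in CAST/EiJ, Aqp2 is highest in CAST/EiJ, and Sgk1 has the widest spread within groups, from 41.2 to 293 CPM over all libraries.

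Levels over the 12 groups spanned a factor of 1.63 (Aqp3, Scnn1a) to 3.70 (Aqp4) between the highest and the lowest group mean. Strain took the largest share of the variance of log2 CPM for Aqp2 (60.4%) and Aqp3 (47.7%). Sex took the largest share for Avpr2 (46.4%), Scnn1a (66.7%), Scnn1b (57.9%), Scnn1g (43.7%), Hsd11b2 (47.01%) and Nr3c2 (65.2%). For Aqp4 the largest share was the interaction of strain and sex (38.8%), and for Sgk1 it was the residual between libraries of a group (49.7%). The main share of diet did not exceed 6.31% for any of the 10 genes. Interactions that include diet took 16.45% for Aqp3, 10.8% for Scnn1g, 7.09% for Aqp2 and 7.04% for Scnn1b. For the other genes they took 2.2% to 4.33%. These shares were taken before that of the run of sample numbers. When groups were ordered by mean, neighbours in the order overlapped in all 11 pairs for 7 of the genes. The exceptions were 1 pair for Aqp4, 1 for Scnn1g and 2 for Scnn1b.

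The study's design allows females to be compared with males within each strain, over both diets. Sodium channel, receptor and enzyme genes were higher in females in all 3 strains, by 1.27-fold to 1.60-fold. Of the 10 genes, 6 were higher and 2 lower in NZO/HlLtJ females, against 49.9% of all genes tested called in either direction, 25.4% higher and 24.5% lower (edgeR quasi-likelihood test, adjusted p under 0.05). In CAST/EiJ 7 were higher and 0 lower, where 47.6% of all genes were called and 23.7% were higher. In C57BL/6J 8 were higher and 0 lower, where 47.9% of all genes were called and 25.1% were higher. The median log2 fold change of the 10 genes was 0.46 in NZO/HlLtJ, 0.47 in CAST/EiJ and 0.39 in C57BL/6J, beside 0.04, 0.05 and 0.05 for all genes tested. Avpr2, Scnn1a, Scnn1b, Scnn1g, Hsd11b2 and Nr3c2 were higher in females in each strain.

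**Figure D2:**
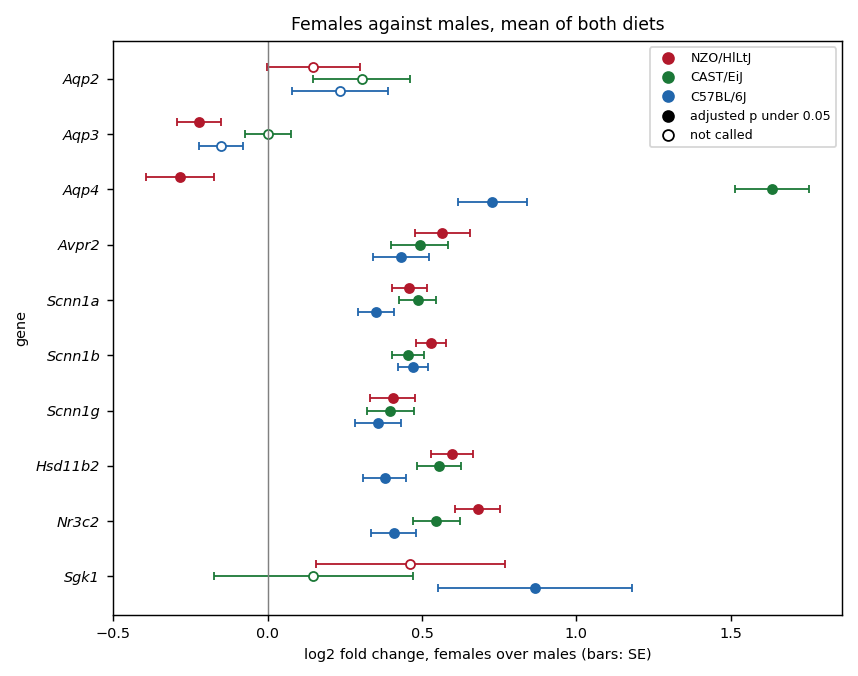
Log2 fold change of females over males (mean of both diets) for the 10 genes in NZO/HlLtJ, CAST/EiJ and C57BL/6J, with bars for the standard error and filled symbols for an adjusted p under 0.05. Avpr2, the 3 sodium channel subunits, Hsd11b2 and Nr3c2 lie between 0.35 and 0.68 in every strain, while Aqp4 runs from -0.28 in NZO/HlLtJ to 1.63 in CAST/EiJ.

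Among the sodium channel subunits, Scnn1b (ENSMUSG00000030873, chromosome 7, 121865038 to 121918514, plus strand, GRCm38) had the smallest residual spread of the 10 genes. It ran from 28.2 to 35.1 CPM (median 31.5) in NZO/HlLtJ females, against 20.2 to 22.9 CPM (median 22.1) in NZO/HlLtJ males. It ran from 23.9 to 31.5 CPM (median 26.8) in CAST/EiJ females, against 16.5 to 27.0 CPM (median 20.04) in CAST/EiJ males, and from 33.9 to 39.5 CPM (median 37.0) in C57BL/6J females, against 25.1 to 27.6 CPM (median 26.9) in C57BL/6J males. The ranges of females and males were apart in NZO/HlLtJ and C57BL/6J and overlapped in CAST/EiJ. The log2 fold change of Scnn1b in females over males was 0.53 (SE 0.05, adjusted p = 3.7e-12) in NZO/HlLtJ, 0.45 (SE 0.05, adjusted p = 1.07e-09) in CAST/EiJ and 0.47 (SE 0.05, adjusted p = 1.3e-10) in C57BL/6J. Scnn1a (ENSMUSG00000030340, chromosome 6, 125320659 to 125344943, plus strand), the subunit that can form a channel by itself, averaged 114.5 ± 11.3 CPM in NZO/HlLtJ females and 83.3 ± 8.74 CPM in NZO/HlLtJ males (SD, n = 8 each). In C57BL/6J it averaged 124 ± 3.61 CPM in females and 96.0 ± 5.21 CPM in males (SD, n = 8 each), and in both strains the sexes did not overlap. In CAST/EiJ the sexes overlapped, with 109 to 149 CPM in females, against 77.2 to 119 CPM in males. Scnn1g (ENSMUSG00000000216), which lies on chromosome 7 at 121734479 to 121768475, 96.6 kb from Scnn1b, had the smaller sex difference of this pair: 0.40 (SE 0.07, adjusted p = 1.18e-05) in NZO/HlLtJ, 0.40 (adjusted p = 3.37e-05) in CAST/EiJ and 0.36 (adjusted p = 9.71e-05) in C57BL/6J on the log2 scale. Its ranges overlapped between the sexes in every strain.

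The vasopressin receptor gene Avpr2 (ENSMUSG00000031390) lies on chromosome X at 73892102 to 73895502, plus strand. It ran from 10.6 to 13.0 CPM (median 11.5) in NZO/HlLtJ females, against 6.94 to 9.16 CPM (median 7.79) in NZO/HlLtJ males, with no overlap. In CAST/EiJ it averaged 15.6 ± 2.58 CPM in females (SD, n = 8) and 11.04 ± 1.67 CPM in males (SD, n = 7), and in C57BL/6J 12.2 ± 1.45 CPM in females and 9.27 ± 1.51 CPM in males (SD, n = 8 each), with overlap in both strains. The log2 fold changes of Avpr2 were 0.57 (SE 0.09, adjusted p = 1.08e-06), 0.49 (adjusted p = 2.36e-05) and 0.43 (adjusted p = 0.000112) in NZO/HlLtJ, CAST/EiJ and C57BL/6J.

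The mineralocorticoid receptor gene Nr3c2 (ENSMUSG00000031618, chromosome 8, 76899442 to 77245012, plus strand) had no overlap between the sexes in any of the 3 strains. It ran from 19.3 to 27.6 CPM (median 24.0) in NZO/HlLtJ females, against 12.04 to 18.01 CPM (median 14.8) in NZO/HlLtJ males. In CAST/EiJ it ran from 22.5 to 28.9 CPM (median 25.5) in females, against 15.7 to 22.2 CPM (median 17.0) in males, and in C57BL/6J from 25.6 to 29.4 CPM (median 26.2) in females, against 17.6 to 21.3 CPM (median 20.9) in males. The log2 fold change of Nr3c2 was 0.68 (SE 0.07, adjusted p = 2.13e-10) in NZO/HlLtJ, 0.55 (adjusted p = 1.16e-07) in CAST/EiJ and 0.41 (adjusted p = 1.27e-05) in C57BL/6J. The enzyme gene Hsd11b2 (ENSMUSG00000031891, chromosome 8, 105518746 to 105523984, plus strand) averaged 88.4 ± 7.22 CPM in NZO/HlLtJ females and 58.6 ± 8.35 CPM in NZO/HlLtJ males (SD, n = 8 each), the largest of its sex differences (log2 0.60, SE 0.07, adjusted p = 1.15e-09). In CAST/EiJ it averaged 125.5 ± 10.97 CPM in females (SD, n = 8) and 86.9 ± 14.5 CPM in males (SD, n = 7), and in C57BL/6J 101 ± 7.58 CPM in females and 77.2 ± 5.41 CPM in males (SD, n = 8 each). Hsd11b2 did not overlap between the sexes in NZO/HlLtJ and C57BL/6J. In CAST/EiJ and C57BL/6J the log2 differences of Nr3c2 and Hsd11b2 were positive within each run of sample numbers. In NZO/HlLtJ run 77 they were 0.67 for Nr3c2 and 0.56 for Hsd11b2. In this strain run 81 holds only females on 10% fat and males on 44% fat, and run 89 only females on 44% fat and males on 10% fat, so within those runs sex and diet cannot be told apart.

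Counted over all 10 genes, every female library was above every male library for 5 genes in NZO/HlLtJ (8.04% of all genes), 2 in CAST/EiJ (6.6%) and 5 in C57BL/6J (10.6%). In CAST/EiJ these were Aqp4 and Nr3c2. The calls for Avpr2, Scnn1a, Scnn1b, Scnn1g, Hsd11b2 and Nr3c2 in each strain were kept in all 10 other settings of the analysis and without any 1 library of that strain.

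Aqp4 (ENSMUSG00000024411, chromosome 18), the basolateral water channel gene whose protein forms square arrays in membranes, was the member with a sex difference that differed between strains. It ran from 54.3 to 113 CPM (median 76.9) in NZO/HlLtJ females, against 64.3 to 128 CPM (median 94.5) in NZO/HlLtJ males. In CAST/EiJ it ran from 97.1 to 134 CPM (median 116) in females, against 30.6 to 44.0 CPM (median 35.8) in males. In C57BL/6J it ran from 106 to 153 CPM (median 131) in females, against 54.0 to 96.5 CPM (median 75.2) in males. The sexes were apart in CAST/EiJ and C57BL/6J and overlapped in NZO/HlLtJ. Females were 3.11-fold higher in CAST/EiJ (log2 1.63, SE 0.12, adjusted p = 6.05e-14) and 1.66-fold higher in C57BL/6J (log2 0.73, SE 0.11, adjusted p = 1.08e-06). In NZO/HlLtJ females were lower (log2 -0.28, SE 0.11, adjusted p = 0.0297). This NZO/HlLtJ call was lost without 5 of the 16 libraries. They were replicate 3 (adjusted p = 0.122) and replicate 4 (0.0564) of males on 44% fat, replicate 3 (0.0508) and replicate 4 (0.0642) of females on 10% fat, and replicate 1 of males on 10% fat (0.0672). Without run 81 the NZO/HlLtJ log2 difference was -0.05 (adjusted p = 0.749).

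The test of the difference between strains was past the threshold for Aqp4 in all 3 pairs and for no other of the 10 genes. The female minus male difference was lower in NZO/HlLtJ than in C57BL/6J by a log2 difference of -1.01 (SE 0.16, adjusted p = 2.55e-05), where 4.95% of all genes were called and 2.35% were lower. It was higher in CAST/EiJ than in C57BL/6J by 0.91 (SE 0.16, adjusted p = 7.29e-05), where 13.2% were called and 5.94% were higher, and lower in NZO/HlLtJ than in CAST/EiJ by -1.92 (SE 0.16, adjusted p = 1.79e-11), where 14.3% were called and 6.53% were lower. At an unadjusted p under 0.05 the members numbered 3, 1 and 2 in these comparisons, beside 3182, 4525 and 4774 of the 18786 genes tested. Within runs 77, 81 and 89 the female minus male log2 difference of Aqp4 was 1.59, 1.76 and 1.54 in CAST/EiJ and 0.76, 0.53 and 0.93 in C57BL/6J. In run 77, the run with both sexes on both diets in NZO/HlLtJ, it was -0.10.

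Aqp2, the luminal water channel gene, did not pass the test between the sexes in any strain. Its log2 fold changes were 0.15 (adjusted p = 0.442) in NZO/HlLtJ, 0.30 (adjusted p = 0.112) in CAST/EiJ and 0.24 (adjusted p = 0.221) in C57BL/6J. The CAST/EiJ value was past the threshold when other strains were left out of the fit (adjusted p = 0.0252) and when the third library of females fed 10% fat was dropped (adjusted p = 0.0473). Aqp3 (ENSMUSG00000028435, chromosome 4, 41092722 to 41098183, minus strand), a basolateral channel for water and glycerol, was lower in NZO/HlLtJ females (log2 -0.22, SE 0.07, adjusted p = 0.00841), at 35.5 to 49.6 CPM, against 36.5 to 70.6 CPM in NZO/HlLtJ males. This call was lost without replicate 4 of NZO/HlLtJ males on 44% fat (log2 -0.14, adjusted p = 0.0585), without run 81 (adjusted p = 0.0572), without run 89 (adjusted p = 0.102) and with other strains left out of the fit (adjusted p = 0.0725). Aqp3 was at 0.00 in CAST/EiJ and -0.15 (adjusted p = 0.0822) in C57BL/6J, where it was past the threshold with limma-voom (adjusted p = 0.0473), with other strains left out (adjusted p = 0.021), without run 81 (adjusted p = 0.0331) and without replicate 1 of C57BL/6J females on 10% fat (adjusted p = 0.0326). Sgk1 was higher in C57BL/6J females, at 68.1 to 153 CPM (median 122), against 47.9 to 77.4 CPM (median 54.8) in C57BL/6J males, with overlapping ranges (log2 0.87, SE 0.31, adjusted p = 0.0224). That call was lost without run 81 (adjusted p = 0.101), without run 89 (adjusted p = 0.116) and without replicate 2 of C57BL/6J males on 10% fat (adjusted p = 0.0511). The difference of Sgk1 was 0.46 (adjusted p = 0.22) in NZO/HlLtJ, where it was 0.74 (adjusted p = 0.0404) without replicate 1 of males on 44% fat, and 0.15 (adjusted p = 0.743) in CAST/EiJ.

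Other genes of the same cell and pathways were counted in the same tests. Their counts stand beside 25.4%, 23.7% and 25.1% of all genes higher in females of NZO/HlLtJ, CAST/EiJ and C57BL/6J. In either direction 49.9%, 47.6% and 47.9% of all genes were called. Of the 12 principal cell markers outside the 10 genes, 9 were higher and 1 lower in NZO/HlLtJ females, 10 higher and 0 lower in CAST/EiJ females, and 10 higher and 1 lower in C57BL/6J females. Apela, which encodes a peptide ligand, was higher by log2 fold changes of 1.16, 0.87 and 0.94 in NZO/HlLtJ, CAST/EiJ and C57BL/6J, and Npnt, which encodes the matrix protein nephronectin, by 0.95, 0.73 and 1.28. Of 14 vasopressin and cAMP signalling genes, 9, 7 and 10 were higher and 1, 3 and 0 lower in females of NZO/HlLtJ, CAST/EiJ and C57BL/6J. Adcy6, the adenylyl cyclase that couples to Avpr2 in this cell, was higher by 0.62 (adjusted p = 5.41e-15), 0.55 (adjusted p = 1.09e-12) and 0.56 (adjusted p = 2.07e-13). Of 16 sodium channel regulation and processing genes, 5 were higher in females of each strain, and 6, 4 and 4 were lower. They moved in both directions: St14, which encodes the membrane protease matriptase, was higher by 0.75, 0.55 and 0.69, while Usp10, which encodes a deubiquitinase, was lower at -0.40, -0.35 and -0.44. Of 12 corticosteroid response and receptor genes, 1, 2 and 1 were higher and 6, 4 and 6 lower in females. Hsd11b1, which regenerates the active glucocorticoid that Hsd11b2 removes, was lower at -1.26, -0.58 and -2.12, and H6pd, which supplies its cofactor, at -0.61, -0.38 and -0.58.

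Markers of some other kidney cell types moved with sex too, beside 25.4%, 23.7% and 25.1% of all genes higher in females of NZO/HlLtJ, CAST/EiJ and C57BL/6J. All 10 intercalated cell markers were higher in NZO/HlLtJ and C57BL/6J females and 9 of 10 in CAST/EiJ females, and all 5 podocyte markers were higher in females of each strain. Summed, the intercalated markers ran from 349.5 to 428.8 CPM in NZO/HlLtJ females and 214.2 to 282.6 CPM in NZO/HlLtJ males. They ran from 350.5 to 416.3 CPM in CAST/EiJ females and 274.2 to 343.4 CPM in CAST/EiJ males, and from 436.1 to 497.6 CPM in C57BL/6J females and 318.9 to 348.2 CPM in C57BL/6J males. The summed podocyte markers ran from 487.7 to 526.5 CPM in NZO/HlLtJ females and 304.9 to 378.8 CPM in NZO/HlLtJ males. The summed principal cell markers ran from 1135.2 to 1435.9 CPM in NZO/HlLtJ females and 777.6 to 1092.9 CPM in NZO/HlLtJ males. This sum rests mainly on Tfcp2l1 and Npnt, with medians of 597 and 219 CPM over all libraries. None of the intercalated cell, podocyte and principal cell markers was at 0 in any library. Of 7 proximal tubule markers, 2, 3 and 3 were higher in females of NZO/HlLtJ, CAST/EiJ and C57BL/6J, and 3 were lower in each strain. Of 7 macrophage markers, 0 were higher in females of any strain and 1, 2 and 0 were lower in NZO/HlLtJ, CAST/EiJ and C57BL/6J by edgeR. CPM are shares of all RNA of the kidney, and whether the cells' number or the other cells' RNA contributed to the sex differences was not tested.

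The diets were compared within each strain, over both sexes. Of the 10 genes, 0 were called in C57BL/6J, where 0.0266% of all genes were called and 1085 genes had an unadjusted p under 0.05, none of them among the 10. In CAST/EiJ 0 were called, where 0.99% of all genes were called, with 2551 genes and 2 of the 10 at an unadjusted p under 0.05. In both strains DESeq2 and limma-voom also called 0 of the 10. In NZO/HlLtJ 1 gene, Aqp4, was called, lower, where 3.62% of all genes were called in either direction and 1.64% were lower. At an unadjusted p under 0.05 were 6 of the 10, beside 3263 of the 18786 genes tested.

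**Figure D3:**
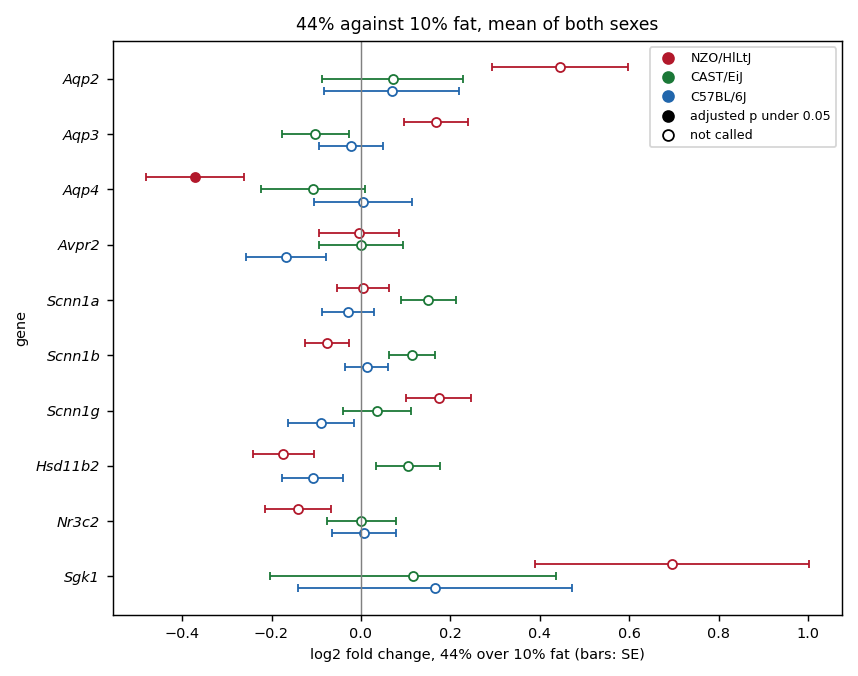
Log2 fold change of 44% over 10% fat (mean of both sexes) for the 10 genes in NZO/HlLtJ, CAST/EiJ and C57BL/6J, with bars for the standard error and filled symbols for an adjusted p under 0.05. The one filled symbol is Aqp4 in NZO/HlLtJ at -0.37, and Sgk1 and Aqp2 in NZO/HlLtJ lie highest, at 0.70 and 0.44 with adjusted p values of 0.224 and 0.0987.

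In NZO/HlLtJ females Aqp4 was at 62.7, 64.1, 54.3 and 59.6 CPM on 44% fat, against 102, 113, 96.3 and 89.7 CPM on 10% fat. In NZO/HlLtJ males it was at 64.3, 82.6, 128 and 103 CPM on 44% fat, against 112, 104, 78.9 and 86.4 CPM on 10% fat. All 4 females on 44% fat were below all 4 on 10% fat, while the males of both diets overlapped. Within run 77, however, males on 44% fat (64.3 and 82.6 CPM) were also below males on 10% fat (112 and 104 CPM). Outside run 77 the NZO/HlLtJ females on 44% fat were in run 89 and those on 10% fat in run 81. The males were the reverse, so within a sex diet and run cannot be told apart there. Over both sexes the log2 fold change was -0.37 (SE 0.11, adjusted p = 0.0497), close to the threshold. The call was lost in 14 of the 16 fits that left out 1 NZO/HlLtJ library, with adjusted p values up to 0.158. Only the fits without the third male library of either diet kept it. The difference of this diet effect between females and males was -0.57 on the log2 scale (adjusted p = 0.36). In run 77, the run of sample numbers that holds all 4 NZO/HlLtJ groups, the log2 difference between diets was -0.66 over 8 libraries, and without run 77 it was -0.11 (adjusted p = 0.841).

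Aqp2 and Sgk1 had the largest positive diet differences in NZO/HlLtJ, neither past the threshold. Aqp2 was at 72.6, 112, 89.1 and 74.8 CPM in females on 44% fat, against 65.9, 108, 65.7 and 94.6 CPM in females on 10% fat. It was at 115, 89.04, 53.6 and 152 CPM in males on 44% fat, against 53.5, 57.3, 73.1 and 47.5 CPM in males on 10% fat. The diets overlapped in both sexes. Its log2 fold change was 0.44 (SE 0.15, adjusted p = 0.0987), and it was called without replicate 3 of males on 44% fat (adjusted p = 0.0143) and with limma-voom with quality weights (adjusted p = 0.0293). Sgk1 was at 121, 135, 141 and 182 CPM in NZO/HlLtJ females on 44% fat, against 87.1, 151, 152 and 70.1 CPM in females on 10% fat. It was at 221, 78.0, 64.8 and 169 CPM in males on 44% fat, against 80.3, 83.3, 41.2 and 44.9 CPM in males on 10% fat. Here too the diets overlapped (log2 0.70, SE 0.31, adjusted p = 0.224), and limma-voom with quality weights called Sgk1 as well (log2 0.88, adjusted p = 0.0401).

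**Figure D4:**
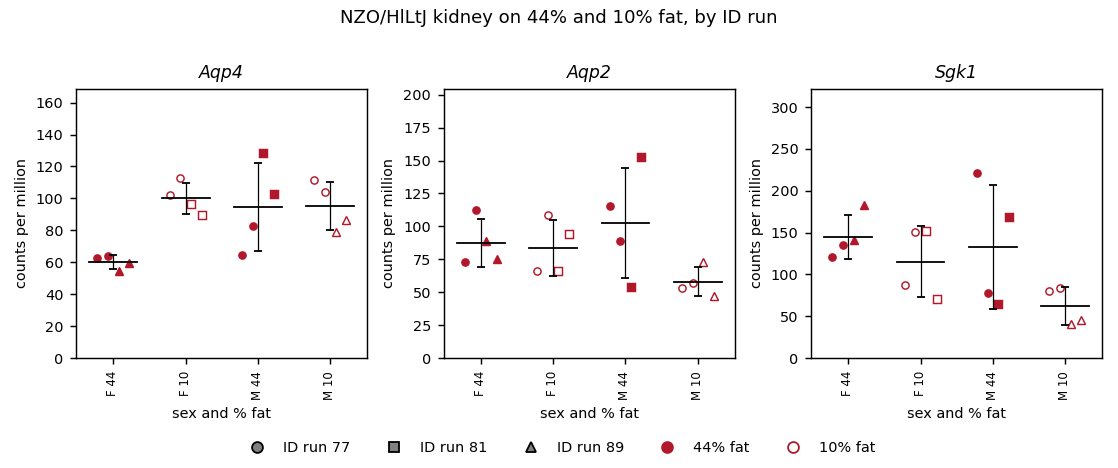
CPM of Aqp4, Aqp2 and Sgk1 in NZO/HlLtJ libraries, females then males and 44% fat before 10% fat, with symbols for the run of sample numbers (circle 77, square 81, triangle 89) and mean ± SD. Aqp4 in females on 44% fat lies between 54.3 and 64.1 CPM, below the 89.7 to 113 CPM of females on 10% fat.

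The other genes had smaller diet differences in NZO/HlLtJ. Scnn1g was at 35.1, 29.8, 26.7 and 38.9 CPM in males on 44% fat, against 24.9, 24.8, 24.7 and 23.7 CPM in males on 10% fat, with no overlap, and over both sexes its log2 fold change was 0.17 (adjusted p = 0.194). Scnn1b in NZO/HlLtJ females was at 28.2 to 30.9 CPM on 44% fat, against 32.2 to 35.1 CPM on 10% fat, also with no overlap, and over both sexes its log2 fold change was -0.08 (adjusted p = 0.451). For both genes, outside run 77, diet and run cannot be told apart within a sex of this strain. Hsd11b2 had a log2 fold change of -0.17 (adjusted p = 0.158) and Nr3c2 one of -0.14 (adjusted p = 0.318), while Scnn1a and Avpr2 were at 0.00 and -0.00. Counting genes whose diets did not overlap within a strain and sex, 2 of the 10 were lower on 44% fat in NZO/HlLtJ females (3.22% of all genes), 1 was higher in NZO/HlLtJ males (3.24%) and 1, Aqp3, was lower in CAST/EiJ females (1.75%). In CAST/EiJ males Scnn1a and Scnn1b were higher on 44% fat without overlap (5.21%), and in C57BL/6J females and males there was no such gene in either direction (3.74% and 3.83%).

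The test of a diet effect that differed between strains called 0 of the 10 genes in each pair. Of all genes, 0.0373% were called between NZO/HlLtJ and C57BL/6J, 0.0532% between CAST/EiJ and C57BL/6J and 1.28% between NZO/HlLtJ and CAST/EiJ, with 1291, 1538 and 2652 genes at an unadjusted p under 0.05. Of the 10 genes, 2, 2 and 3 were at an unadjusted p under 0.05, and DESeq2 and limma-voom called 0 of them as well. The test of a diet effect that differed between the sexes called 0 of the 10 in C57BL/6J (0% of all genes, 530 at an unadjusted p under 0.05) and 0 in NZO/HlLtJ (0.00532%, 2097 at an unadjusted p under 0.05). In NZO/HlLtJ DESeq2 called 1 of the 10, Aqp3 (adjusted p = 0.044).

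In CAST/EiJ that test called 1 gene, Scnn1b, where 0.0479% of all genes were called and 0.0319% were called in the lower direction. Scnn1b was at 26.7, 26.7, 24.4 and 26.9 CPM in CAST/EiJ females on 44% fat, against 30.2, 23.9, 30.3 and 31.5 CPM in females on 10% fat. It was at 21.8, 22.02, 20.04 and 27.0 CPM in CAST/EiJ males on 44% fat, against 16.5, 18.5 and 18.1 CPM in males on 10% fat. Males on 44% fat were all above males on 10% fat, and 3 of the 4 females on 10% fat were above all females on 44% fat. The female minus male difference of the diet effect was -0.50 on the log2 scale (SE 0.10, adjusted p = 0.0471). The call was lost in 12 of the 15 fits that left out 1 CAST/EiJ library (adjusted p up to 0.159), and without run 89 the difference was -0.35 (adjusted p = 0.769).

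In NZO/HlLtJ most of the genes had a lower diet effect in females than in males, without passing the test. The difference of the diet effects was negative for 9 of the 10 genes, with a median of -0.39 beside 0.01 for all genes. At an unadjusted p under 0.05 were 5 of the 10, beside 2097 of the 18786 genes tested. Aqp3 stood at -0.61 (adjusted p = 0.217), Scnn1g at -0.54 (adjusted p = 0.247) and Aqp2 at -0.88 (adjusted p = 0.32). Aqp3 was at 38.4 ± 3.37 CPM in females on 44% fat and 42.2 ± 5.38 CPM in females on 10% fat, and at 55.3 ± 12.5 CPM in males on 44% fat and 40.0 ± 3.53 CPM in males on 10% fat (SD, n = 4 each). Outside run 77 the NZO/HlLtJ females on 44% fat and males on 10% fat are all in run 89, and the females on 10% fat and males on 44% fat all in run 81, so there this difference cannot be told apart from the runs. In run 77, with 8 libraries, it was -0.67 for Aqp3, -0.31 for Scnn1g and -0.77 for Aqp2. The run term had an unadjusted p of 0.00307 for Scnn1g and passed for no gene after adjustment. In CAST/EiJ the difference was negative for all 10 genes, with a median of -0.24 beside 0.005 for all genes. There 1 of the 10 was at an unadjusted p under 0.05, beside 1457 of all genes. In C57BL/6J it was positive for 7 of the 10 genes and negative for 3, with a median of 0.03 beside 0.006 for all genes.

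Beside Aqp4, other genes of the collecting duct and of neighbouring segments passed the diet test in NZO/HlLtJ. Of 12 principal cell markers, Fxyd4, a regulator of the sodium pump, was lower (log2 -0.37, adjusted p = 0.025) and 0 were higher. Of 10 intercalated cell markers, 4 were lower and 0 higher, with a median of -0.24. Of all genes tested, 3.62% were called in either direction and 1.64% were lower. The lower intercalated markers included the chloride and bicarbonate exchanger gene Slc4a1 (-0.29, adjusted p = 0.001) and the proton pump subunit gene Atp6v1g3 (-0.25, adjusted p = 0.0109). The intercalated markers summed to 349.5 to 371.6 CPM in NZO/HlLtJ females on 44% fat, against 416.7 to 428.8 CPM in females on 10% fat, the same sex in which the ranges of Aqp4 were apart. In males they summed to 214.2 to 267.0 CPM on 44% fat, against 244.2 to 282.6 CPM on 10% fat. Here too, outside run 77, diet and run cannot be told apart within a sex. The connecting tubule marker Calb1, a calcium-binding protein gene, was higher (0.57, adjusted p = 0.00056), as was the sodium pump subunit gene Atp1b1 (0.16, adjusted p = 0.0481). Both genes were named for small adjusted p values in their lists, whose other genes are not described here. The part of these markers in the difference of Aqp4 was not tested. Of 14 vasopressin and cAMP genes, 16 sodium channel regulation genes and 12 corticosteroid genes, 0 were called for diet in NZO/HlLtJ by edgeR, with the smallest adjusted p at 0.271 (Oxtr), 0.177 (Prss8) and 0.292 (Hsd11b1).

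Strains were compared over both sexes and both diets. Aqp2 was highest in CAST/EiJ. Against C57BL/6J, NZO/HlLtJ had 0 of the 10 genes higher and 7 lower, where 52.2% of all genes were called and 25.8% were lower. Against C57BL/6J, CAST/EiJ had 5 higher and 3 lower, where 71.4% of all genes were called, 36.2% higher and 35.2% lower. Against CAST/EiJ, NZO/HlLtJ had 2 higher and 7 lower, where 70% of all genes were called, 34.8% higher and 35.2% lower. With backgrounds of this size, counts of 8 and 9 called genes are close to the share of all genes.

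Aqp2 (ENSMUSG00000023013, chromosome 15, 99579056 to 99584545, plus strand) averaged 82.8 ± 28.4 CPM in NZO/HlLtJ (SD, n = 16), 144 ± 24.5 CPM in CAST/EiJ (SD, n = 15) and 78.1 ± 13.3 CPM in C57BL/6J (SD, n = 16). It was higher in CAST/EiJ than in C57BL/6J (log2 0.87, SE 0.11, adjusted p = 1.07e-08) and lower in NZO/HlLtJ than in CAST/EiJ (-0.82, adjusted p = 5.26e-08). CAST/EiJ females were at 116 to 186 CPM, against 65.3 to 109 CPM in C57BL/6J females, and CAST/EiJ males at 111 to 139 CPM, against 55.9 to 86.5 CPM in C57BL/6J males. There was no overlap in either sex, a pattern that 14.3% of all genes showed in females and 16.2% in males in that direction. NZO/HlLtJ females, at 65.7 to 112 CPM, were below all CAST/EiJ females, while NZO/HlLtJ males ran from 47.5 to 152 CPM and overlapped with CAST/EiJ males. Aqp2 did not share this order with Aqp4, which was lower in CAST/EiJ than in C57BL/6J (log2 -0.58, adjusted p = 5.87e-08). Males did not overlap, at 30.6 to 44.0 CPM in CAST/EiJ, against 54.0 to 96.5 CPM in C57BL/6J (15.6% of all genes), while females did.

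The sodium channel subunit genes did not share 1 order of strains. All 3 were lower in NZO/HlLtJ than in C57BL/6J, Scnn1a by a log2 fold change of -0.13 (adjusted p = 0.00598), Scnn1b by -0.25 (adjusted p = 6.92e-08) and Scnn1g by -0.14 (adjusted p = 0.02). Without run 77 Scnn1a was at -0.08 (adjusted p = 0.212) and Scnn1g at -0.09 (adjusted p = 0.257), and the call for Scnn1g was also lost without run 89 (adjusted p = 0.107), with no run term (adjusted p = 0.126) and with limma-voom (adjusted p = 0.0518). Scnn1b averaged 26.7 CPM in NZO/HlLtJ, 24.3 CPM in CAST/EiJ and 31.8 CPM in C57BL/6J, and was lower in CAST/EiJ than in C57BL/6J (log2 -0.42, SE 0.04, adjusted p = 8.06e-14). Scnn1g was higher in CAST/EiJ than in C57BL/6J by 0.18 (SE 0.05, adjusted p = 0.00273), a call lost without run 77 (0.12, adjusted p = 0.0689) and without run 89 (adjusted p = 0.0653). Scnn1a had a log2 fold change of -0.01 in that comparison (adjusted p = 0.761). The ratio of Scnn1g to Scnn1b CPM within a library had a median of 1.19 (range 1.04 to 1.70) in NZO/HlLtJ, 1.61 (1.37 to 2.24) in CAST/EiJ and 1.12 (0.874 to 1.39) in C57BL/6J. Without overlap, Scnn1b was lower in CAST/EiJ than in C57BL/6J females (15.2% of all genes) and lower in NZO/HlLtJ than in C57BL/6J males (6.74%). Between NZO/HlLtJ and C57BL/6J females, 0 of the 10 genes were without overlap, against 14.3% of all genes. The aligner and whether strain-specific genomes were used are not given in the sources used here, so the part of read mapping in differences between strains was not tested.

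Hsd11b2 was lowest in NZO/HlLtJ, with log2 fold changes of -0.29 against C57BL/6J and -0.52 (adjusted p = 6.2e-12) against CAST/EiJ. NZO/HlLtJ females were below CAST/EiJ females without overlap for Aqp2, Aqp3 and Hsd11b2 (13.2% of all genes), and NZO/HlLtJ males were above CAST/EiJ males without overlap for Aqp4 (13.1%). Nr3c2 was lower in NZO/HlLtJ than in C57BL/6J (-0.31) and lower in CAST/EiJ than in C57BL/6J (-0.13, adjusted p = 0.0228). The CAST/EiJ call was lost without run 81, where the log2 fold change was -0.06 (adjusted p = 0.43), and without run 89 (adjusted p = 0.0697). Aqp3 was lower in NZO/HlLtJ than in either other strain, by -0.33 against C57BL/6J and -0.44 against CAST/EiJ. Avpr2 was higher in CAST/EiJ than in C57BL/6J (0.30) and lower in NZO/HlLtJ than in CAST/EiJ (-0.43). Sgk1 averaged 114 CPM in NZO/HlLtJ, 141 CPM in CAST/EiJ and 88.7 CPM in C57BL/6J. It was higher in CAST/EiJ than in C57BL/6J by 0.69 (SE 0.22, adjusted p = 0.00572), a call lost without run 81 (adjusted p = 0.111) or run 89 (adjusted p = 0.0613). In NZO/HlLtJ against C57BL/6J its log2 fold change was 0.53 (adjusted p = 0.0517). That value was past the threshold in 7 of the 32 fits that left out 1 library of these strains, with adjusted p values from 0.0171 to 0.0923 over all 32.

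Sgk1 (ENSMUSG00000019970, chromosome 10, 21882184 to 21999903, plus strand) varied between libraries of the same group more than it varied between groups. The libraries of CAST/EiJ show this by run of sample numbers. In run 81 the females were at 266, 213 and 293 CPM, against 121, 145 and 106 CPM in the males, a log2 difference of 1.15. In run 89 the females were at 92.5, 107 and 83.1 CPM, against 226 and 198 CPM in the males, a log2 difference of -1.18. In run 77 all 4 libraries lay between 52.7 and 88.4 CPM. The sexes were thus apart in runs 81 and 89, in opposite directions. The values below are Pearson correlations of deviations from the group mean of log2 CPM over 47 libraries. They describe co-variation in libraries that share depth, composition and the run of sample numbers, and carry no test. Among 11821 genes the most alike were Tob2 (r = 0.89), an antiproliferative factor gene, Tsc22d3 (r = 0.88), which encodes the glucocorticoid-induced protein GILZ, and Per1 (r = 0.84), a clock gene that glucocorticoids induce. Within runs 77, 81 and 89 the r with Tsc22d3 was 0.897, 0.904 and 0.807, and with Per1 0.865, 0.742 and 0.835. Without the 2 libraries farthest in Sgk1, r was 0.858 with Tsc22d3 and 0.84 with Per1, and Spearman's rho over all 47 was 0.882 and 0.866. In replicate 2 of CAST/EiJ females on 10% fat, Sgk1 was at 293, Tsc22d3 at 105 and Per1 at 88.0 CPM. In replicate 1 of CAST/EiJ females on 44% fat, Sgk1 was at 57.9, Tsc22d3 at 18.5 and Per1 at 27.3 CPM.

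**Figure D5:**
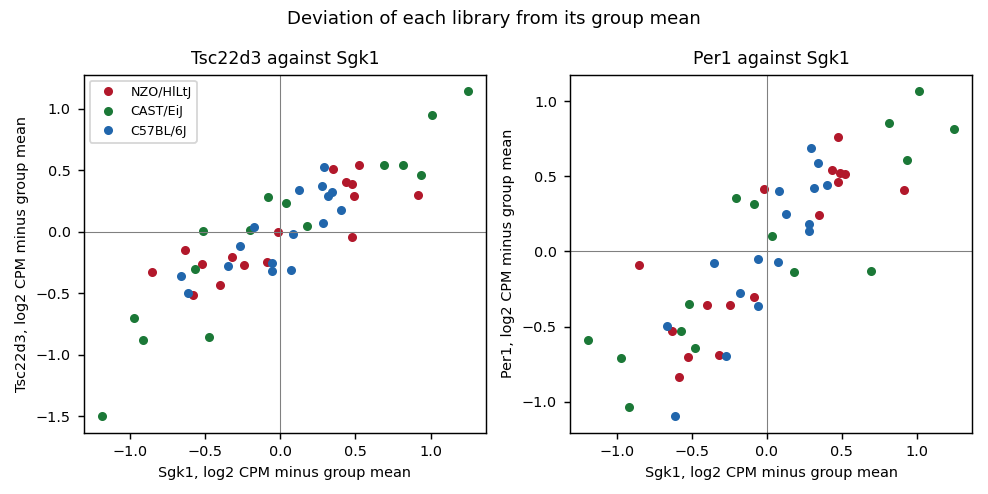
Deviation of each of 47 libraries from its group mean (log2 CPM) for Tsc22d3 and for Per1 against Sgk1, coloured by strain. The points of all 3 strains rise together, with r = 0.883 for Tsc22d3 and r = 0.842 for Per1.

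The other genes of the corticosteroid list were less alike to Sgk1. Klf9, another glucocorticoid-induced factor gene, had r = 0.637, Zbtb16 0.509, Hsp90aa1 0.486, Fkbp4 0.48, Fkbp5 0.437 and H6pd 0.37. The glucocorticoid receptor gene Nr3c1 had r = -0.498, Nedd9 -0.4, Hsd11b1 -0.0937 and Edn1 0.132. In run 89 the r of Fkbp5, Fkbp4, Zbtb16 and Hsp90aa1 with Sgk1 lay between -0.0761 and 0.025. AGAACA, found in 19% of all windows, was matched in some but not all of the windows searched for Sgk1 (6) and Tsc22d3 (3). It was also matched in the 1 window each of Aqp2 and Avpr2. It was not matched for Per1 (2 windows). A gene with more windows has more chances of a match. The palindrome printed above for Sgk1 was not in the windows of Tsc22d3 or Per1.

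Within the group of 10 genes, Aqp2 and Aqp3 were the pair that varied together most between libraries of a group (r = 0.791, n = 47). Scnn1a and Hsd11b2 had r = 0.572 and Aqp2 and Avpr2 r = 0.56. Other pairs varied in opposite directions, with r = -0.382 for Scnn1g and Sgk1, the lowest, and r = -0.274 for Aqp2 and Aqp4. Over the 12 group means the highest pairs were Avpr2 and Hsd11b2 (r = 0.958), Scnn1a and Nr3c2 (r = 0.947) and Avpr2 and Scnn1g (r = 0.929), groups that share strain and sex. The genes outside the 10 most alike over group means were Usp53 for Aqp2 (r = 0.98), Elk4 for Aqp3 (0.96), Wdr90 for Aqp4 (0.91), Coro2b for Avpr2 (0.98), Fam234b for Scnn1a (0.99), Atp6v1b1 for Scnn1b (0.98), Mal2 for Scnn1g (0.96), Proser2 for Hsd11b2 (0.99), Hoxb5 for Nr3c2 (0.99) and Vps33b for Sgk1 (0.97). Atp6v1b1 encodes a proton pump subunit of the intercalated cell. Between libraries of a group, the most alike were Pkd2, a gene of polycystic kidney disease, for Aqp4 (0.70) and Slc26a4, the pendrin gene of the intercalated cell, for Hsd11b2 (0.72).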

How the data were processed

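Whole-kidney RNA was sequenced as 100 bp read pairs in 47 libraries, per the labels' protocols. Expected counts per gene, not normalized, were deposited as 1 table, in which 21% of values were not whole. They also deposited a variance-stabilized matrix on a log2 scale (5.93 to 21.1), which entered 1 alternative, a limma fit, and no main test. GRCm38 and DESeq2 are named in the submitters' processing notes, while the aligner, counter and strain genomes are not given in the sources used here.

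Counts were rounded and fitted with edgeR 4.0.16 (filterByExpr, TMM, robust quasi-likelihood F test, R 4.3.3), with 1 mean per group and a term for the run of sample numbers. P-values were Benjamini-Hochberg adjusted over 18786 genes, with a threshold of 0.05. SE is the log2 fold change divided by the square root of F. CPM are TMM-scaled, and 69 replicate pairs all differed beyond sampling noise (chi-square per degree of freedom 11.4 to 60.4). Replicates are numbered in accession order. Transcript lengths came from GENCODE M21. Alternatives used DESeq2 1.42.0, limma 3.58.1, other filters and normalizations, and libraries or runs left out, and the code was tested on simulated data. The 10 genes and all lists were chosen with earlier results of these data known. Named list genes are among the 4 smallest adjusted p values of their list in a comparison, and genes most alike are the top 3 by Pearson r.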

Additional observations from a re-analysis of the deposited data

Results flagged for a closer look

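Of 110 sets of 4 libraries (1 gene in 1 group each), 6 held a library whose gap to the nearest other was large for the range of the set by Dixon's test, where chance gives about 1 in 20. Scnn1b was at 24.4 CPM in replicate 3 of CAST/EiJ females on 44% fat, with the others at 26.7 to 26.9 CPM. Scnn1g was at 23.7 CPM in replicate 4 of NZO/HlLtJ males on 10% fat, with the others at 24.7 to 24.9 CPM. Hsd11b2 was at 73.7 CPM in replicate 1 of the same group, with the others at 58.8 to 60.4 CPM. Nr3c2 was at 28.4 CPM in replicate 2 of C57BL/6J females on 10% fat, with the others at 26.1 to 26.2 CPM. It was at 17.6 CPM in replicate 1 of C57BL/6J males on 44% fat, with the others at 21.2 CPM. Sgk1 was at 293 CPM in replicate 2 of CAST/EiJ females on 10% fat, with the others at 83.1 to 107 CPM.

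A tested difference between groups in the same contrast was past the threshold in 4 cases. The diet effect on Scnn1b in CAST/EiJ differed between females and males by -0.495 on the log2 scale. The female minus male difference of Aqp4 differed by -1.01 between NZO/HlLtJ and C57BL/6J, by 0.908 between CAST/EiJ and C57BL/6J and by -1.92 between NZO/HlLtJ and CAST/EiJ.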

How the results depend on the processing

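No result on the 10 genes changed direction while called in the 10 other settings or without any of the 47 libraries. Counts of members called that moved by over 1.5 times are given here. Diet in NZO/HlLtJ (1 gene) gave 0 with no expression filter, with no run term, with only the strains compared, and without run 77 or 89, and 3 with limma-voom with quality weights. The diet effect of females against males in CAST/EiJ (1 gene) gave 0 with no filter, with only the strain compared, and without run 77, 81 or 89, and in NZO/HlLtJ (0 genes) it gave 1 with DESeq2. The sex difference of NZO/HlLtJ against C57BL/6J (1 gene) gave 3, and against CAST/EiJ (1 gene) 2, with limma-voom. NZO/HlLtJ against C57BL/6J (7 genes) gave 4 without run 77, and CAST/EiJ against C57BL/6J (8 genes) gave 5 without run 89. Settings that leave out a run or other strains use fewer libraries, and other causes were not tested. Leaving out 1 library gave 0 to 3 for diet in NZO/HlLtJ, 0 to 1 for the diet effect of NZO/HlLtJ against CAST/EiJ and of females against males in CAST/EiJ and in NZO/HlLtJ, and 1 to 2 for the sex difference of NZO/HlLtJ against C57BL/6J and against CAST/EiJ. Sex counts stayed at 6 to 9 in NZO/HlLtJ, 7 to 8 in CAST/EiJ and 7 to 9 in C57BL/6J, with calls for Aqp2, Aqp3, Aqp4 and Sgk1 gained or lost as given above. Adjusted p from DESeq2 was undefined for 4 values. No paired analysis was possible because the labels carry no replicate numbers. With 4 libraries a group, the residual SD of Sgk1 (0.61 on the log2 scale) limits what could be called for it.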

Other observations

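Genes of neighbouring tubule segments were counted in the same tests. All 6 connecting tubule markers were higher in NZO/HlLtJ and CAST/EiJ females and 5 of 6 in C57BL/6J females. Trpv5, the calcium channel gene of this segment, was higher by log2 fold changes of 0.66, 0.66 and 0.47 in NZO/HlLtJ, CAST/EiJ and C57BL/6J. Among the other aquaporin genes, Aqp6 of the intercalated cell was higher in females by 0.56, 0.44 and 0.33. Aqp1, the water channel gene of the proximal tubule and thin limb, was higher in CAST/EiJ females (0.36, adjusted p = 2.97e-09 by edgeR) and had a log2 difference of -0.04 in NZO/HlLtJ. The luminal potassium channel gene Kcnj1 was higher in females by 0.70, 0.39 and 0.52, and the basolateral Kcnj10 by 0.69, 0.47 and 0.61. Kcnj1 is also among the thick ascending limb markers, so it does not stand for the principal cell alone. The genes named here were picked for small adjusted p values in their lists. Of all genes tested, 25.4%, 23.7% and 25.1% were higher in females of NZO/HlLtJ, CAST/EiJ and C57BL/6J.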
